A study of Mus musculus with 10 samples.

Results

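Clade B serpins are protease inhibitors without a classical secretion signal that act mostly inside the cell. A serpin offers a protease an exposed loop as bait, is cut, and traps the protease in a covalent complex, so that each molecule works once. Myeloid cells store elastase, proteinase 3 and cathepsin G in granules, and their clade B serpins are best known for protecting the cytosol against such enzymes when they leak. The mouse carries more clade B genes than humans do, because the families of human SERPINB1, SERPINB6, SERPINB9 and SERPINB3 were duplicated.

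The values below concern 9 clade B serpin genes among 52550 genes counted. Serpinb9g was chosen by its rise in counts with doxycycline (DOX) in MLL-AF9-i139 cells, and the other 8 (Serpinb1a, Serpinb2, Serpinb6a, Serpinb6b, Serpinb8, Serpinb9, Serpinb9b and Serpinb10) were chosen by their symbol, to ask whether other intracellular protease inhibitors moved with it. Of the 9 genes 8 had at least 10 counts over the 10 libraries. Serpinb9b had 0 counts and was not measured, and Serpinb6b lay just inside that limit with 14 counts.

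All libraries came from bone marrow of C57BL/6 mice, enriched for progenitors (HSPCs, hematopoietic stem and progenitor cells). They were transformed with a retrovirus of the MLL-AF9 fusion oncogene and were carrying the tetR-KRAB repressor, which holds the inducible vector silent until DOX is added. MLL-AF9-i139 cells carry an inducible miR-139 vector. Colonies were picked and expanded, and 3 clones were sequenced once without DOX and once with DOX at 5 µg/mL, which lasted 48 h in clones 1 and 2 and 72 h in clone 3. No time is given for their untreated cultures. MLL-AF9-ieGFP cells carry an inducible eGFP vector in its place, and 1 clone was sequenced untreated and with DOX after 48 h and after 72 h, so that these 4 libraries are time points of a single clone. Total RNA depleted of ribosomal RNA was sequenced, and total counts per library ranged from 35133308 to 47089725.

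The label of a transformed myeloid progenitor was set against marker genes. Kit stood between 131 and 172 CPM (counts scaled by library total, with TMM normalization) in all 10 libraries and Mpo between 414 and 1669 CPM, while Itgam and Cd34 had at most 3 and 20 counts. Itgam encodes CD11b, for which the study reports its MLL-AF9 cells to be positive by flow cytometry. Why the Itgam counts were so low was not tested, so they do not show that the protein was absent. Of the T and NK cell markers, Cd3e had at most 1 count in any library and Cd3d 6 to 22, but Nkg7 stood between 12.2 and 53.3 CPM. Of the megakaryocyte markers, Pf4 had at most 1 count and Itga2b stood between 1.19 and 2.16 CPM. The Mir139 gene had 0 counts in every library and its host gene Pde2a at most 1, so these libraries gave no check of the induced microRNA.

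The members lie in 2 clusters (GRCm38). Serpinb2 (chr1:107511423-107535478, + strand), Serpinb10 (chr1:107529003-107549271, + strand) and Serpinb8 (chr1:107590006-107610484, + strand) share chromosome 1. Chromosome 13 holds Serpinb1a (chr13:32842092-32851185, - strand), Serpinb6b, Serpinb9, Serpinb9b, Serpinb9g (chr13:33484790-33496004, + strand) and Serpinb6a (chr13:33917918-34002794, - strand). All are annotated as protein coding except Serpinb10, which the annotation lists as a polymorphic pseudogene. Serpinb9 and Serpinb9g, genes of one duplicated family, thus lie in the same cluster as Serpinb1a.

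The microRNA arms that the vector encodes are shown so that the members' transcripts can be read for matches to their seeds. Capitals mark bases 2 to 8 (the seed), and both sequences are the RefSeq entries of the mouse.
miR-139-5p: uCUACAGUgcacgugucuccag
miR-139-3p: uGGAGACGcggcccuguuggag
Among the 9 members, the annotated transcripts held a match to the miR-139-5p seed (ACTGTAG) only in Serpinb1a. It lies in the 3′ UTR, in exon 7 of 7, at position 1495 of a transcript of 1918 bases (chr13:32842509-32842515, - strand), and is shown with its surroundings, the match in capitals.
Serpinb1a: aaactttatggACTGTAGgtgggtgcctgc
Of 14438 genes with an annotated 3′ UTR, 13.4% held such a match there. Anywhere in a transcript, 27.6% of 14652 protein-coding genes with at least 10 counts held one. A match to the miR-139-3p seed occurred in the coding part of Serpinb6b, and in no other member. Of the same 14652 genes, 17.1% held a match to that seed anywhere in a transcript. Serpinb9g, Serpinb2 and Serpinb10 had no match to either seed. A match is a description of letters and not a measured site.

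The 250 bases upstream of 4 genes are shown next, because Serpinb9g is the member the others are set against and Serpinb2, Serpinb10 and Serpinb8 are neighbours in one cluster. They come from RefSeq promoters on GRCm38.p6, read 5′ to 3′ on the + strand. Capitals mark the AP-1 motif TGANTCA, the core of the cAMP response element (CRE), TGACGT, and the TATA box motif TATAAA. These motifs were chosen after the sequences were seen.
Serpinb9g (chr13:33484540-33484789): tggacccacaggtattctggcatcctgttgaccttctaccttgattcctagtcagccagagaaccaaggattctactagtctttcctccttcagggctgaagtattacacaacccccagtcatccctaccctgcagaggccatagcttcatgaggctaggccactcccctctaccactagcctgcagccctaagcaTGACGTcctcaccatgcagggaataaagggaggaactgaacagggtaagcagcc
Serpinb2 (chr1:107511173-107511422): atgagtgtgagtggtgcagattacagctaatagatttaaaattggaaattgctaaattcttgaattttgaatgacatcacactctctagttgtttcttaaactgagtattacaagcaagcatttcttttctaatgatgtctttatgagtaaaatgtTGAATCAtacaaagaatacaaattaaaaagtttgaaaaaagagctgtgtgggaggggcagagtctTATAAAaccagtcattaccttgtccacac
Serpinb10 (chr1:107528753-107529002): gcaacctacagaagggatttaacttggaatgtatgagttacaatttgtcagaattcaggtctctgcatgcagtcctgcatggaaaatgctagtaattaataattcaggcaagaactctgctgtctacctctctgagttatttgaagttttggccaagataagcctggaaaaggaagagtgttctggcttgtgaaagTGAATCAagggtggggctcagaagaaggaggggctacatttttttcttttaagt
Serpinb8 (chr1:107589756-107590005): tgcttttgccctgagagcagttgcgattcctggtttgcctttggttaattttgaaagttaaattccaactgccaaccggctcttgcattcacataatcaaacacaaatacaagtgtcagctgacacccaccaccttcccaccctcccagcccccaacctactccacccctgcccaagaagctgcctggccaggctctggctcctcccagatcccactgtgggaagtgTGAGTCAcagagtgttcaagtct
The motif TGANTCA, searched on both strands, occurred in the windows of Serpinb2, Serpinb10 and Serpinb8, the 3 members on chromosome 1, and in 6.75% of all 32851 windows of this length. TGACGT occurred among the members in Serpinb9g alone and in 6.47% of all windows. TATAAA occurred among the members in Serpinb2 alone and in 12.4% of all windows. Another 3 motifs were searched on both strands and are not marked. The C/EBP motif TTNCNNAA occurred in all 8 members with a window and in 36.8% of all windows. The PU.1 core motif GAGGAA occurred in 3 members and 23.3% of windows, and an NF-kB motif in 3 members and 45.8% of windows. TGACGT and TGANTCA can share their first letters, but no printed window held an overlap of both. The window of Serpinb10 lies inside the annotated body of Serpinb2, and Serpinb1a had no window in the table.

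Serpinb9g, a mouse relative of the granzyme B inhibitor Serpinb9, went from near the lower limit of the libraries to the level of an abundant member. In clones 1, 2 and 3 it had 39, 18 and 15 counts without DOX, which were 0.799, 0.410 and 0.380 CPM. With DOX it had 1290, 714 and 554 counts, which were 26.9, 18.2 and 14.1 CPM. The clones were alike in the size of the change, which was 4.99, 5.31 and 5.04 on the log2 scale. The fitted log2 fold change was 5.21 (SE 0.38) and is given without a test, since the gene was chosen by this contrast. Serpinb9g also was higher with DOX in MLL-AF9-ieGFP, where it went from 0.285 to 0.969 CPM at 48 h and from 0.145 to 0.979 CPM at 72 h. These levels rest on 13 and 5 counts without DOX and on 38 and 36 with DOX. Its log2 fold change there was 2.12 (SE 0.49), with an adjusted p of 1 from edgeR's quasi-likelihood test and 0.258 with the culture time as a block. All DOX libraries of MLL-AF9-i139 thus stood above both DOX libraries of MLL-AF9-ieGFP, which in turn stood above every untreated library.

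Reads of Serpinb9g are partly shared with close copies. Of its 50-base stretches 54.8% also occur in transcripts of other genes, 46.0% in Gm11397 and 37.5% in Serpinb9f. Those copies had few counts, at most 1 for Gm11397, 3 for Serpinb9f, 2 for Serpinb9d and 4 for Serpinb9e in any library. Serpinb9 shared 0.378% of its stretches with another gene.

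**Figure D1:**
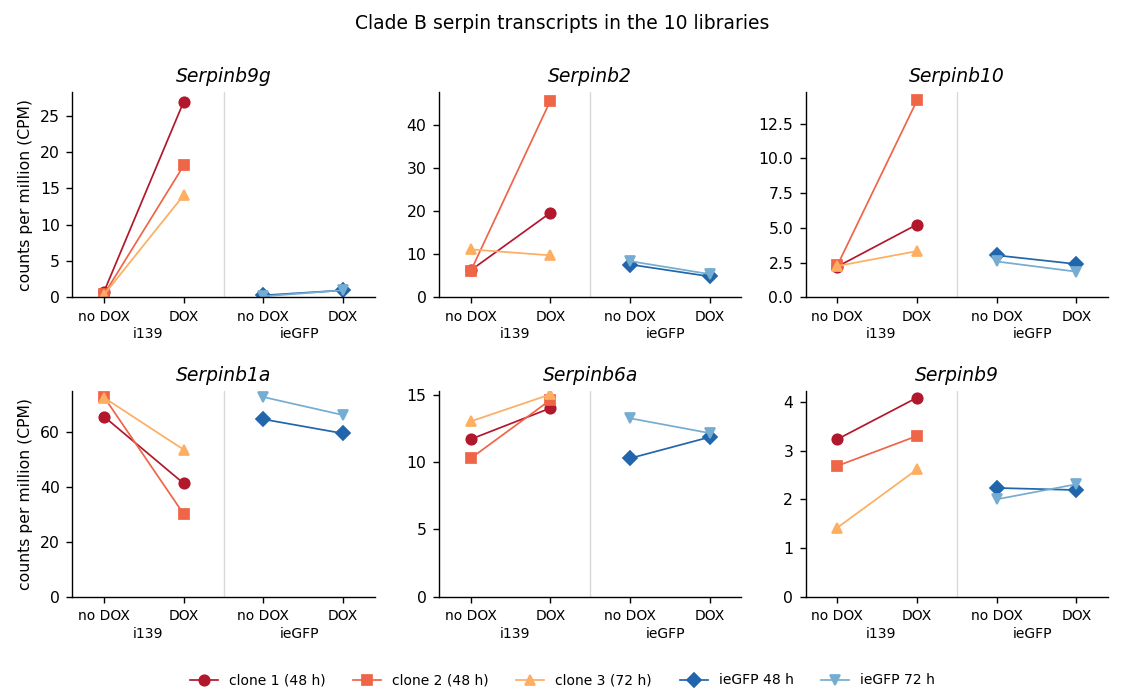
CPM (TMM-normalized) of the 6 members with the most counts, one panel per gene, one point per library, with lines joining the libraries of a clone or time. Serpinb9g rises in all 3 MLL-AF9-i139 clones to between 14.1 and 26.9 CPM, Serpinb1a is lower with DOX in all 3, and in MLL-AF9-ieGFP Serpinb2 and Serpinb10 are lower and Serpinb9g is higher with DOX at both times.

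The rise of Serpinb9g was not seen across the other members. With DOX in MLL-AF9-i139, 0 of the 7 others tested passed an adjusted p of 0.05 in edgeR without a clone block, where 0.0624% of all 19223 genes did. At an unadjusted p under 0.05 there were 3 (Serpinb1a, Serpinb2 and Serpinb10), against 20.6% of all genes, and DESeq2 called 2 of the 5 to which it gave an adjusted p, against 12.1% of all genes. With the clone as a block edgeR called 1 higher and 1 lower, where 7.05% of all genes were called higher, 5.33% lower and 12.4% in either direction. Serpinb10 was the one called higher and Serpinb1a the one called lower. The median log2 fold change of the 7 was 0.46, against 0.01 over all genes.

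Serpinb1a, the inhibitor of elastase, proteinase 3 and cathepsin G and the most abundant member, was lower with DOX in every MLL-AF9-i139 clone. Untreated clones 1, 2 and 3 stood at 65.5, 72.6 and 72.3 CPM, and the treated ones at 41.2, 30.0 and 53.4 CPM. The groups did not overlap, as was so for 24.9% of all genes tested. Its log2 fold change was -0.74 (SE 0.19, n = 3 against 3), with an adjusted p of 0.118 in edgeR without the block and 0.0294 with the clone as a block. Leaving out clone 1, 2 or 3 gave log2 fold changes of -0.80, -0.53 and -0.93 with adjusted p of 0.679, 0.742 and 0.00540 in edgeR, in fits that called 1, 0 and 3981 of all genes. In MLL-AF9-ieGFP Serpinb1a stood at 64.5 and 72.6 CPM without DOX and at 59.4 and 66.0 CPM with DOX (48 h and 72 h), a log2 fold change of -0.13 (SE 0.21, adjusted p of 1 in edgeR). The untreated levels of both constructs overlapped.

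Serpinb2 and Serpinb10 had the same order of treated clones, with clone 2 highest and clone 3 lowest, and a wide spread between them. Serpinb2 encodes plasminogen activator inhibitor 2, which blocks urokinase. Its levels were 6.27, 6.09 and 11.1 CPM in untreated clones 1, 2 and 3 and 19.6, 45.5 and 9.73 CPM under DOX, so that clones 1 and 2 were higher and clone 3 was not. Its log2 fold change was 1.69 (SE 0.52, adjusted p of 0.140 in edgeR, 0.104 with the clone as a block). Leaving out clone 1, 2 or 3 it was 1.69, 0.77 and 2.41, with adjusted p of 0.679, 0.742 and 0.00311.

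Serpinb10, bomapin, known from bone marrow and myeloid cells, stood at 2.21, 2.30 and 2.26 CPM without DOX and at 5.24, 14.2 and 3.33 CPM with DOX. All 3 treated clones lay above all untreated ones, by a narrow margin in clone 3. The log2 fold change was 1.76 (SE 0.49) with an adjusted p of 0.125 in edgeR, 0.0428 with the clone block. When clone 1, 2 or 3 was left out it was 1.94, 0.95 and 2.11, with adjusted p of 0.679, 0.742 and 0.0117. In MLL-AF9-ieGFP both genes were lower with DOX at each time. Serpinb2 went from 7.61 to 4.85 CPM at 48 h and from 8.39 to 5.39 CPM at 72 h, and Serpinb10 from 3.03 to 2.40 and from 2.58 to 1.85 CPM. Neither difference passed the test (adjusted p of 1 in edgeR).

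Serpinb2 and Serpinb10 overlap on one strand, and 12.4% of the exon bases of Serpinb2 and 8.34% of those of Serpinb10 lie in exons of both. Reads there cannot be given to one gene, and how much of their shared order came from these bases was not tested. Clone 3 also differs from clones 1 and 2 in its DOX time of 72 h against 48 h, so clone and time cannot be told apart in MLL-AF9-i139.

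Markers of myeloid cells, progenitor and mature, also differed between treated and untreated clones. The summed level of 6 myeloid progenitor markers was 988, 1182 and 1152 CPM in untreated clones 1, 2 and 3 and 2311, 2223 and 2295 CPM under DOX. Most of the difference was Mpo, with a mean of 536 CPM without DOX and 1407 CPM with DOX, while Kit stood at 143 and 144 CPM. In MLL-AF9-ieGFP the sum was also higher with DOX. It went from 1137 to 1313 CPM at 48 h and from 1267 to 1589 CPM at 72 h. Of the 5 progenitor markers that could be tested, 3 were called higher with the clone as a block (Mpo, Cd34 and Fcgr3) and 0 lower, where 7.05% and 5.33% of all genes were. The summed level of 7 neutrophil markers was 189, 179 and 141 CPM in untreated clones 1, 2 and 3 and 378, 401 and 223 CPM under DOX. Of these 7, 3 were called higher with the clone as a block (Cxcr2, Ngp and Cebpe) and 0 lower, beside the same shares of all genes. Cxcr2, a chemokine receptor of neutrophils, reached 41.6 CPM with DOX in the highest clone, against at most 1.40 CPM in the untreated and MLL-AF9-ieGFP libraries, while Mmp8 stayed at or under 0.536 CPM in all 10 libraries. The sum of 6 monocyte and macrophage markers was 364, 449 and 430 CPM in the untreated clones. Under DOX it was 290, 314 and 441 CPM, lower in clones 1 and 2. In MLL-AF9-ieGFP it went from 368.5 to 376 CPM at 48 h and from 393 to 440 CPM at 72 h. Most of this sum was Ly6c2, with 343 to 431 CPM in the untreated clones, and Ly6c2 and F13a1 were lower in clones 1 and 2. Csf1r, Adgre1, Cd68 and Cx3cr1 were higher in both clones, by 0.53 to 2.20 on the log2 scale. With the clone as a block 1 of 6 was called higher (Csf1r) and 0 lower, against 7.05% and 5.33% of all genes. Their part in the levels of the serpins was not tested, and in bulk RNA a change in the number of cells of a type cannot be told apart from a change in RNA per cell.

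**Figure D2:**
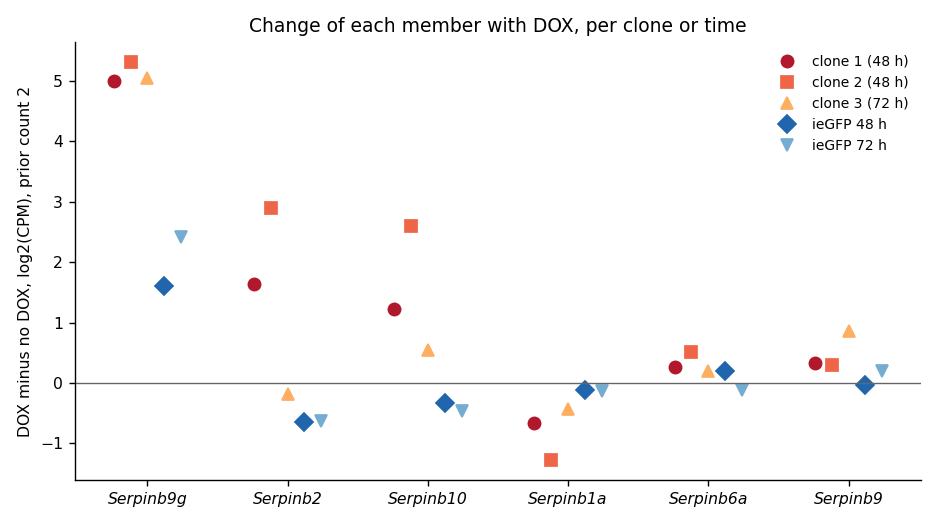
Difference in log2 CPM (prior count 2) between DOX and no DOX for each of the 6 members, one symbol per MLL-AF9-i139 clone and per MLL-AF9-ieGFP time, with the line at no change. Serpinb9g lies between 4.99 and 5.31 in the MLL-AF9-i139 clones, whereas Serpinb2 spreads from -0.19 in clone 3 to 2.89 in clone 2.

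Serpinb6a, which inhibits cathepsin G, and Serpinb9, which inhibits granzyme B, differed little between treated and untreated clones. Serpinb6a stood at 11.7, 10.3 and 13.03 CPM without DOX and at 14.0, 14.6 and 15.04 CPM with DOX in clones 1, 2 and 3. The groups did not overlap, but the log2 fold change of 0.33 (SE 0.14) had an adjusted p of 0.245 in edgeR and 0.101 with the clone as a block. Serpinb6a overlaps genes on the other strand, among them Nqo2 and Ripk1, and 39.6% of its exon bases lie in bodies of other genes. Its level may therefore hold reads of those genes if the counting ignored strand, which the sources used here do not give.

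Serpinb9 stood at 3.24, 2.69 and 1.42 CPM without DOX and at 4.09, 3.31 and 2.62 CPM with DOX. It was higher in each clone, by 0.33, 0.29 and 0.86 on the log2 scale, but the groups overlapped. The fitted log2 fold change was 0.46 (SE 0.33), with an adjusted p of 0.464 in edgeR and 0.119 with the clone as a block. In MLL-AF9-ieGFP Serpinb6a ranged from 10.3 to 13.3 CPM and Serpinb9 from 2.00 to 2.31 CPM over the 4 libraries, with no order by DOX that held at both times.

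Serpinb8, known as an inhibitor of furin, and Serpinb6b were at the lower limit of these libraries, where 3 counts correspond to 0.0637 to 0.0854 CPM. Serpinb8 had 34 counts in all, with 4, 0 and 0 in untreated clones 1, 2 and 3 and 5, 6 and 1 under DOX. Serpinb6b had 0, 4 and 5 counts without DOX and 0, 2 and 2 with DOX. No change was detectable for either at this depth (adjusted p of 0.449 and 0.658 in edgeR).

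The direct comparison of the responses of both constructs gave 0 of 7 members other than Serpinb9g past an adjusted p of 0.05 in edgeR, as 0.00493% of all 20269 genes did. At an unadjusted p under 0.05 there were 3, against 9.17% of all genes, and DESeq2 called 0. Serpinb10 differed by 2.15 (SE 0.69, adjusted p of 0.527) and Serpinb2 by 2.32 (SE 0.72, adjusted p of 0.527) on the log2 scale, both higher in MLL-AF9-i139. Serpinb1a differed by -0.63 (SE 0.27, adjusted p of 0.537). With the clone, or in MLL-AF9-ieGFP the culture time, as a block edgeR called 0 of the 7, against 0.187% of all genes. Leaving out clone 3 it called 3 of the 6 tested (Serpinb1a, Serpinb2 and Serpinb10), where 10.2% of all genes were called. Without clone 3 the comparison in MLL-AF9-i139 alone likewise called these 3 of 6, and 21.7% of all genes. Serpinb9g, chosen by one of the contrasts, differed by 3.07 (SE 0.64) and was not tested.

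Within MLL-AF9-ieGFP, 0 of the 8 members passed an adjusted p of 0.05 with DOX in edgeR, where 0 genes, or 0.0%, of 20269 did. At an unadjusted p under 0.05 there was 1, Serpinb9g, against 1.28% of all genes, and DESeq2 called 0 members. Among the untreated libraries, 0 of 8 members passed in edgeR between MLL-AF9-i139 and MLL-AF9-ieGFP, where 0.0444% of all genes did. Again 1 member, Serpinb9g, had an unadjusted p under 0.05, against 2.48% of all genes, and DESeq2 called 0 members. Untreated Serpinb9g was higher in MLL-AF9-i139 by 1.26 (SE 0.48, adjusted p of 1) on the log2 scale, with 0.380 to 0.799 CPM against 0.145 and 0.285 CPM.

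The order of the members changed with DOX. Levels were compared per kilobase of annotated exon, without a correction for bases shared with other genes. Of 50-base stretches, 54.8% in Serpinb9g, 25.1% in Serpinb6a, 10.4% in Serpinb2 and 2.81% in Serpinb1a also occur in transcripts of other genes. How reads there were counted is not given, so levels may be understated to different degrees. In untreated MLL-AF9-i139 cells Serpinb1a led with 30.5 ± 1.75 CPM per kb (SD, n = 3), followed by Serpinb2 with 3.33 ± 1.21, Serpinb6a with 2.16 ± 0.254, Serpinb9 with 0.701 ± 0.267, Serpinb10 with 0.647 ± 0.0128 and Serpinb9g with 0.275 ± 0.121 CPM per kb. Serpinb2 stood above Serpinb6a in each untreated clone, though their means differed by less than the spread of Serpinb2, while Serpinb9 stood above Serpinb10 in clones 1 and 2 and below it in clone 3. With DOX Serpinb1a still led with 18.0 ± 5.09 CPM per kb, and Serpinb9g stood at 10.2 ± 3.41, next to Serpinb2 at 10.6 ± 7.87. Serpinb9g then stood above Serpinb2 in clones 1 and 3 and below it in clone 2, while Serpinb6a stood at 2.69 ± 0.0952 and Serpinb10 at 2.17 ± 1.66 CPM per kb. In MLL-AF9-ieGFP with DOX Serpinb1a led with a mean of 27.2 CPM per kb and Serpinb9g had a mean of 0.506.

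The share of clade B counts shows the same turn within each library. Serpinb1a held 72.5%, 76.3% and 71.4% of the counts of the clade B family in untreated clones 1, 2 and 3 and 36.9%, 23.7% and 54.1% under DOX. Serpinb9g held at most 0.886% without DOX and 24.1%, 14.4% and 14.2% with DOX. Serpinb2 held 17.5%, 36.0% and 9.85% with DOX, so it outweighed Serpinb1a in clone 2 alone. In MLL-AF9-ieGFP Serpinb1a held 72.2% to 74.1% in all 4 libraries and Serpinb9g at most 1.18%. Shares are tied to each other, so a rise of one gene lowers the share of the rest. The summed level of the family was 90.3, 95.1 and 101 CPM without DOX and 112, 126 and 98.8 CPM with DOX in clones 1, 2 and 3, and the groups overlapped.

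**Figure D3:**
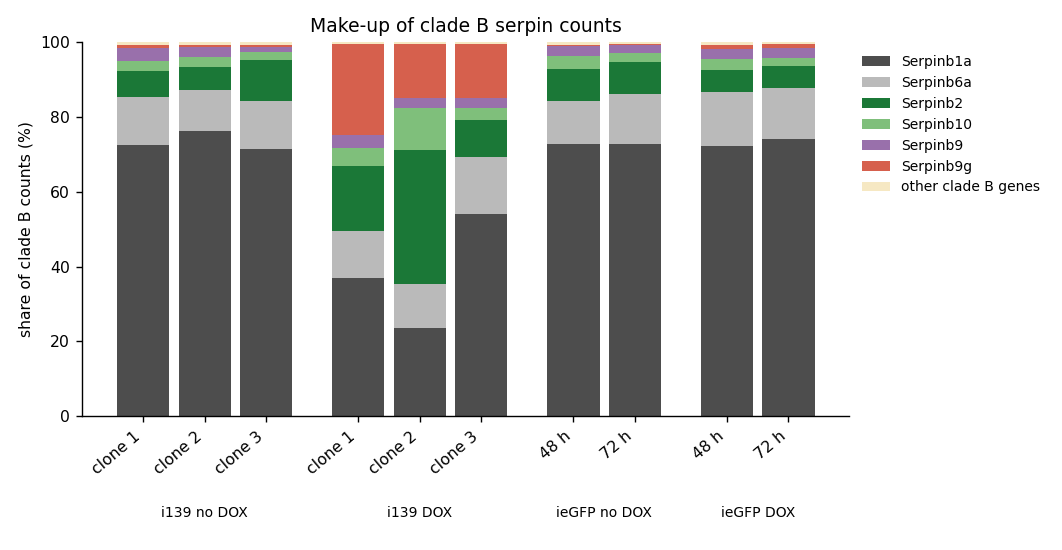
Share of all clade B serpin counts (%, linear axis from 0 to 100) held by each gene in each of the 10 libraries. Serpinb1a fills 71.4% or more of each untreated and each MLL-AF9-ieGFP bar, and 23.7% to 54.1% of the bars of MLL-AF9-i139 with DOX, where Serpinb9g takes 14.2% to 24.1%.

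Beyond the members, the family list held 28 mouse clade B genes, of which 27 were in the table. The 18 other genes found had at most 68 counts each over the 10 libraries (Serpinb6d), 5 of them could be tested with DOX in MLL-AF9-i139, and 0 passed in edgeR with or without the clone block (0 at an unadjusted p under 0.05, and DESeq2 gave none an adjusted p). Next to Serpinb9g, the nearest gene with at least 10 counts was Gm11387, 12123 bases away, with at most 3 counts in a library, and on the other side Serpinb9e, 223940 bases away, with at most 4.

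Proteases that clade B serpins are known to inhibit, or that share their compartments, were tested beside them. Of 16 proteases listed 13 could be tested, and with the clone as a block 5 were higher (Casp1, Casp4, Ctsb, Ctsg and Furin) and 1 was lower (Ctsl), where 7.05% of all genes were higher and 5.33% lower. Without the block 0 of 13 passed in edgeR (6 at an unadjusted p under 0.05, against 20.6% of all genes, and DESeq2 called 3 of 10, against 12.1%). Their median log2 fold change was 0.45 with the block, against 0.01 over all genes. Ctsg, cathepsin G, the target of Serpinb1a and Serpinb6a, stood at 728, 964 and 1140 CPM in untreated clones 1, 2 and 3 and at 1254, 1478 and 1626 CPM under DOX, and rose by 0.65 (SE 0.08, adjusted p of 0.0179 in edgeR with the block). The treated clones lay above all untreated ones, in the libraries in which Serpinb1a was lower. Groups did not overlap for 24.9% of all genes tested. In MLL-AF9-ieGFP Ctsg went from 770 to 805 CPM at 48 h and from 986 to 1255 CPM at 72 h. Its difference between the responses of the constructs was 0.43 (SE 0.12) and did not pass (adjusted p of 0.119 in edgeR with the block).

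Elane, neutrophil elastase, and Prtn3, proteinase 3, did not pass the test with the block (log2 fold change of -0.06 with an adjusted p of 0.817, and of -0.42 with an adjusted p of 0.115, in edgeR). When clone 3 was left out, Prtn3 was called lower, with a log2 fold change of -0.66 and an adjusted p of 0.00732 in edgeR, and Elane was not (adjusted p of 0.132). Elane stood at 1090, 1315 and 2004 CPM without DOX and at 913, 1013 and 2669 CPM with DOX, lower in clones 1 and 2 and higher in clone 3. In MLL-AF9-ieGFP Elane went from 1088 to 1215 CPM at 48 h and from 1493 to 1982 CPM at 72 h. Prtn3 went there from 419 to 422 CPM at 48 h and from 481 to 581 CPM at 72 h. Furin, the target of Serpinb8, went from 92.9, 111 and 96.7 CPM to 181, 207 and 119 CPM. Gzma and Gzmb, granzymes of cytotoxic cells, had 0 counts in every library, which allows up to 0.0637 to 0.0854 CPM, and Plat, the tissue plasminogen activator, at most 0.0254 CPM. Gzmm, another granzyme on the list, stood between 5.65 and 8.87 CPM in all libraries. Plau, the urokinase that Serpinb2 blocks, stood at 1.95, 0.935 and 1.42 CPM without DOX and at 5.87, 1.86 and 1.68 CPM with DOX (adjusted p of 0.0587 in edgeR with the block). The granzyme that Serpinb9 blocks was thus not detectable at this depth, whereas the proteases that Serpinb1a blocks stood at 248 CPM or more in every library.

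Among protease inhibitors outside clade B, those that passed with DOX in MLL-AF9-i139 were all higher. Of 23 listed 17 could be tested, and with the clone as a block 9 were higher and 0 lower, against 7.05% and 5.33% of all genes, with a median log2 fold change of 0.51. Without the block 0 of 17 passed in edgeR (9 at an unadjusted p under 0.05, against 20.6% of all genes, and DESeq2 called 7 of 13, all higher, against 12.1%). The 9 were 4 stefins of the duplicated mouse family (Stfa1, Stfa2, Stfa3 and Stfa2l1) with Cstb and Cst7, which inhibit cysteine cathepsins, and Serpine2, Spint1 and Spint2, which inhibit serine proteases at the cell surface or outside the cell. Stfa2l1 went from 8.51, 7.43 and 3.62 CPM to 107, 118 and 14.8 CPM in clones 1, 2 and 3, a log2 fold change of 3.32 (SE 0.35, adjusted p of 0.0111 in edgeR with the block). Clone 3 was lowest, as for Serpinb2 and Serpinb10. Serpine2 went from 8.34, 9.83 and 10.6 CPM to 16.7, 19.9 and 20.1 CPM, alike in the 3 clones, as for Serpinb9g (log2 fold change of 0.99, SE 0.10, adjusted p of 0.0109 in edgeR with the block). In MLL-AF9-ieGFP Serpine2 stood between 4.95 and 6.04 CPM. Set against the response of MLL-AF9-ieGFP, only Stfa2l1 of the 9 passed in edgeR with the block, where 0.187% of all genes did. Its difference was 3.05 (SE 0.43, adjusted p of 0.0303). For the others the adjusted p ran from 0.0802 (Stfa2) to 0.381 (Cst7). Untreated MLL-AF9-ieGFP stood at 423 and 415 CPM for Stfa1 (48 h and 72 h). Treated MLL-AF9-i139 clones 1, 2 and 3 stood at 441, 699 and 198 CPM. The stefins belong to a duplicated family, so their counts may be split between them. How much sequence they share was not measured.

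**Figure D4:**
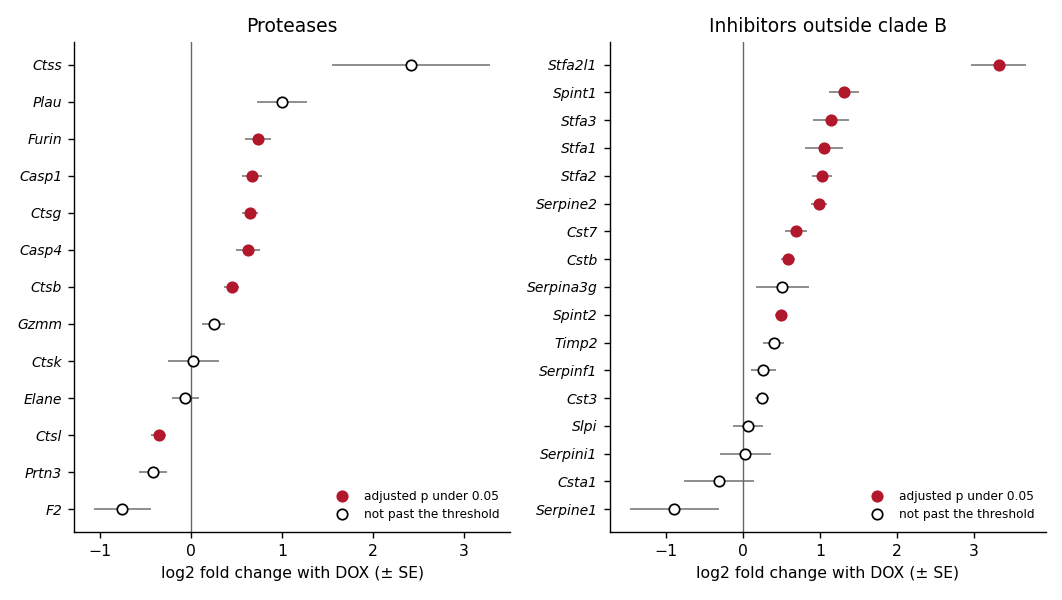
Log2 fold change with DOX in MLL-AF9-i139 (horizontal axis, bars are 1 SE, edgeR with the clone as a block, n = 3 against 3) of the 13 proteases and the 17 inhibitors outside clade B that could be tested, filled where the adjusted p was under 0.05. Among the inhibitors 9 are filled and all lie above 0, with Stfa2l1 at 3.32, and among the proteases 5 filled points lie above and 1 below 0.

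The 5 genes whose log2 CPM followed Serpinb9g most closely over the 10 libraries, among 10672 genes with an average log2 CPM of at least 1, were Ssbp2 (Pearson r = 0.98), Lrp8, Foxn3, Wdfy1 and Cyth1 (r = 0.97 each). The libraries share their construct and treatment, so these values are a description. Ssbp2, which encodes a single-stranded DNA binding protein, changed by 3.90, 3.97 and 3.22 on the log2 scale in clones 1, 2 and 3 and by 0.55 and 0.50 in MLL-AF9-ieGFP at 48 h and 72 h. The other 4 changed by 0.47 to 2.15 in the clones and by 0.11 to 0.33 in MLL-AF9-ieGFP. No clade B serpin was among the 5.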

How the data were processed

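The deposited values are raw read counts per gene. Per the labels and the study's methods, the authors mapped reads to GRCm38 with STAR 2.5.3e and counted them with featureCounts 1.6.0 on a GENCODE annotation. The handling of strand, overlaps and multimapping reads is not given in the sources used here. The 2 deposited tables hold identical values for the 10 libraries (0 differing), and 14 columns that belong to other samples were not used. Of 52550 rows 25799 were at 0 in all 10 libraries. Columns were tied to samples through the sample descriptions, whose clone numbers differ from those of the titles, and the titles' numbers are used here.

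Members by symbol came from the Ensembl identifiers (52403 with a symbol, 147 without). The members, lists, tests and motifs were chosen with earlier results of these data known. Named lists were the clade B family, proteases, other protease inhibitors and cell type markers, along with the 5 genes most correlated with Serpinb9g and the nearest genes with at least 10 counts.

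Counts were tested with edgeR 4.0.16 (R 4.3.3) by the quasi-likelihood test with TMM normalization, on every gene whose counts summed to 10 or more. P-values were adjusted over all these genes by Benjamini-Hochberg, with a threshold of 0.05. DOX against no DOX in MLL-AF9-i139 used its 6 libraries (19223 genes tested), and the other comparisons used 1 fit of 4 groups over 10 libraries (20269 genes tested). Alternatives were DESeq2 1.42.0, RLE size factors, and filters of 10 counts or more in 3 libraries and of 1 count in total. Further ones were a block of clone or culture time (the replicate block), other sets of libraries and leaving out each replicate. The clone block pairs the 2 libraries of 1 clone, since both are cultures of the same clonal line. Their deviations from the group means correlated with r of 0.381, 0.288 and 0.414, against -0.315 to -0.0436 between clones. Deviations cancel out within a group, so the negative values follow from the positive ones and are no separate support. In MLL-AF9-ieGFP the block is the culture time. The scripts were tested on simulated data. Libraries of a group differed beyond sampling noise. With 3 clones, and for MLL-AF9-ieGFP 2 times of 1 clone, p-values measure the spread between these cultures only. Gene positions came from GENCODE M21 (GRCm38), a later release than that of the counts, and sequences from RefSeq (GRCm38.p6), with a promoter window for 8 of the 9 members. Summaries were made in Python. Limits of 3 counts cover counting error only.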

Additional observations from a re-analysis of the deposited data

Results flagged for a closer look

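Serpinb10 is listed because its direction differed between constructs. It was higher with DOX in all 3 MLL-AF9-i139 clones, by 1.23, 2.60 and 0.55 on the log2 scale, and lower in MLL-AF9-ieGFP at both times, by -0.33 at 48 h and -0.47 at 72 h. The difference of the log2 fold changes was 2.15 and did not pass the test of the interaction (adjusted p of 0.527 in edgeR, 0.108 with the replicate block and 0.102 in DESeq2), except without clone 3 (adjusted p of 0.0140). Its lowest library held 68 counts.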

How the results depend on the processing

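Which members passed depended on clone 3 and on the block, as did the number of all genes called. For DOX against no DOX in MLL-AF9-i139, edgeR called 0 of 7 members other than Serpinb9g and 12 of 19223 genes. DESeq2 called 2 of 5 members and 1556 of 12869 genes, and the replicate block 2 members and 2381 of 19223 genes. The fit of all 10 libraries called 2 members and 1234 of 20269 genes. The filter of at least 1 count in total called 1 member and 562 of 25840 genes. Leaving out clone 1, 2 or 3 called 0, 0 and 3 members, and 1, 0 and 3981 of all genes. For the interaction, leaving out 1 replicate gave 0 to 3 members, again with 3 without clone 3 of MLL-AF9-i139. There 10.2% of all genes were called. The block gave 0 members, against 0.187% of all genes. In MLL-AF9-ieGFP and among untreated libraries 0 members were called under every alternative run. The replicate block changed no other call of a member, and it could not be applied to the untreated comparison. Directions in MLL-AF9-i139 held for the 8 members fitted, under each alternative that gave a value (all for 6 members, fewer for Serpinb6b and Serpinb8), with Serpinb9g between 5.11 and 5.34 on the log2 scale.

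Small differences reversed when 1 replicate was left out. In MLL-AF9-ieGFP these were Serpinb6a (-0.14 to 0.21), Serpinb8 (-2.05 to 0.22) and Serpinb9 (-0.023 to 0.19). Between untreated constructs these were Serpinb1a (-0.085 to 0.13), Serpinb2 (-0.39 to 0.12), Serpinb6a (-0.22 to 0.19) and Serpinb9 (-0.042 to 0.46). The cause was not tested. Values of Serpinb6b in MLL-AF9-ieGFP without the 48 h libraries were left out, since both groups were then at 0 counts. As an alternative added after seeing the data, shares were also taken per kilobase of exon, and the fall of the Serpinb1a share moved by less than the spread between clones.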
